A study of Mus musculus with 6 samples.

Results

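A set of 9 genes that bind, take up, oxidize or sense retinoids was examined in brown adipose tissue (BAT) of 3 wild-type (WT) mice and 3 mice lacking miR-22 (KO): Rbp4 and Crabp2, Stra6, Adh1, Adh4, Rdh10, Aldh1a1, Aldh1a2 and Rarb. They were selected on a gene list, with results of KO against WT on these arrays already known, so every KO minus WT value of theirs below is a description and carries no test. Of these 9 genes, 8 were matched to 11 probes, out of 23462 genes and 56605 probes in all, by the RefSeq accession of each probe; Crabp2 was not analysed here. All mice were male, and the study's methods describe the KO as a global deletion from a commercial line, with mice 8 weeks old. RNA of 1 mouse was labelled with 1 dye and hybridised to each of 6 Agilent mouse arrays, so n counts mice. No treatment is given for either group in the labels, and the series' text speaks of a flow separation into TRIzol without saying which cells it kept. Each level is a scaled log2 signal, the log2 of the processed spot intensity minus that of the 75th percentile of the same array, so 0 is the 75th percentile and a difference of 1 is a 2-fold change.

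Retinol, which is vitamin A, travels in blood bound to retinol-binding protein, and cells take it up, store it as esters or oxidize it. Alcohol and retinol dehydrogenases turn retinol into retinal, and retinaldehyde dehydrogenases turn retinal into retinoic acid. Retinoic acid binds nuclear receptors of the RAR family, which sit on DNA as pairs with RXR receptors, and BAT responds to it partly through the thermogenic gene Ucp1.

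The microRNA missing in the KO is shown to identify the deletion, and 4 promoters are shown as context for the genes; no measurement below rests on these letters. They were read from RefSeq tables on GRCm38.p6, and every sequence runs 5′ to 3′. The mature miR-22-3p lies at chr11:75463772-75463793 on the plus strand, and the capitals mark bases 2 to 8, the seed that pairs with target RNAs.
miR-22-3p: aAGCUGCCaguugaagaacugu
Rarb encodes a receptor and is itself a classic retinoic acid target. Its window of 250 bases before the transcription start, at chr14:16575477-16575726 on the minus strand, held a direct repeat of receptor half-sites. It reads GGTTCAccgaaAGTTCA at positions -53 to -37, counted from -1 at the base before the start, and the capitals below mark this repeat with its 5-base spacer.
Rarb: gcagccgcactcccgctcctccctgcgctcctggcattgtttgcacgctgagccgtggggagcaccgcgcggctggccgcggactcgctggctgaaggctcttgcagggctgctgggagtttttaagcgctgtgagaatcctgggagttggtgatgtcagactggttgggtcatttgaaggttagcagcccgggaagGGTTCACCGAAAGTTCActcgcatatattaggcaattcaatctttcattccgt
Cyp26a1, whose enzyme breaks down retinoic acid, is shown beside it as another retinoic acid target, though it was not above background on enough arrays to be tested, at chr19:37697558-37697807 on the plus strand. Its repeat, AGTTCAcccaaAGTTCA, lies on the opposite strand at positions -32 to -16, and the capitals mark it.
Cyp26a1: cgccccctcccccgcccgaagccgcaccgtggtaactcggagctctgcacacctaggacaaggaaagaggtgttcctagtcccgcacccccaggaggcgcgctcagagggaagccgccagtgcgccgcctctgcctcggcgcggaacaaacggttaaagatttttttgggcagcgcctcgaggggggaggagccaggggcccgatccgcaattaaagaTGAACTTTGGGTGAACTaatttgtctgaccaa
Rbp4 and Adh1 are shown because they are the members whose WT and KO mice did not overlap on the brightest probe. The Rbp4 window, 1 of 2 in the table, lies at chr19:38124812-38125061 on the minus strand, and the capitals mark TATAAA, which begins at position -28.
Rbp4: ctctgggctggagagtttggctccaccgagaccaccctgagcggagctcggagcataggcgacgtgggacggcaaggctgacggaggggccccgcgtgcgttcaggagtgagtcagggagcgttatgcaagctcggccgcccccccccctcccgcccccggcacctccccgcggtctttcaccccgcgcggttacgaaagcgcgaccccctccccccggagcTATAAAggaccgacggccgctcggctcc
The Adh1 window lies at chr3:138277335-138277584 on the plus strand and held none of the motifs searched.
Adh1: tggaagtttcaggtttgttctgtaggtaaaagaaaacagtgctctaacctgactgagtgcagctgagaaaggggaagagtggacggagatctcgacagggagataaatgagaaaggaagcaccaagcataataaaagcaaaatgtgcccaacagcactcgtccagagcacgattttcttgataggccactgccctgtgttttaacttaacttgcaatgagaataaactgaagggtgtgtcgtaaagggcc
The search took the half-sites AGGTCA or GGGTCA or AGTTCA or GGTTCA in the same direction with 1, 2 or 5 bases between them, on both strands, and TATAAA on the strand of the gene. Of 32851 windows in the table, 140 (0.426%) held a direct repeat of any of these spacings, and 29 (0.0883%) held one with 5 bases between. TATAAA was in 2494 windows (7.59%). Of the 12 windows of 7 members, Rarb alone held a repeat and Rbp4 alone held TATAAA. A match of letters is a description of the window and not a binding site.

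The arrays held markers of the labelled tissue and differed in quality. All 11 listed brown adipocyte markers were measured, with a mean of 2.40, 2.75 and 2.63 in WT and 2.45, 2.07 and 2.63 in KO. They differed in direction: Ppargc1a, at -0.59 (SE 0.15), passed an unadjusted p under 0.05 with limma downward, and none passed upward. Prdm16 was at 0.55 (SE 0.39). Ucp1, the uncoupling protein that defines brown fat, read 5.51, 5.85 and 5.53 in WT and 5.10, 4.999 and 5.65 in KO, with all 6 spots marked by the scanner software. Such a mark says that pixels of a spot were uneven or that the spot strayed from its copies. Between 4.87% and 17.1% of spots were marked, with WT3 and KO1 highest, and between 55.8% and 66.5% were well above background, with KO1 lowest. KO1 also had the highest floor, with a lowest processed intensity of 20.7 against 4.05 to 8.95 on the others. WT1 and WT2 lay on 1 row of the slide, and WT3 lay on the other row with all KO mice, so only WT3 and the 3 KO mice can be compared within a row. The 75th percentile ran from 1435 to 2633 intensity units, no spot was saturated, and the number of arrays limits the precision. Skeletal muscle markers, all 10 measured, varied most of the marker lists, and their mean was 3.02, 2.09 and -5.58 in WT and 0.51, 3.91 and 2.004 in KO, lowest in WT3 and highest in KO2. The log2 of their summed level ran from -0.39 to 6.70 in WT and from 4.45 to 7.39 in KO, and their part in the values of the members was not tested. The host transcript of miR-22, Mir22hg, read 1.20, 1.69 and 1.22 in WT and 2.02, 2.11 and 2.23 in KO, higher by 0.75 (SE 0.18, adjusted p = 0.108 with limma, 3 mice per group). Where its probe lies relative to the deletion is not given in the sources used here, so it does not check the genotype labels.

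Rbp4, which carries retinol in blood and is also made by adipocytes, had the most negative difference among the members on their brightest probes. Its probe A_51_P374752 read 4.20, 4.65 and 4.29 in WT and 3.92, 3.69 and 4.11 in KO. Every KO mouse was below every WT mouse, with WT2 highest and KO2 lowest. The group means were 4.38 ± 0.23 (SD, n = 3) in WT and 3.91 ± 0.21 (SD, n = 3) in KO, a difference of -0.47 (SE 0.21), or 1.38-fold lower. The spots of WT3, KO1 and KO2 were marked, so 1 unmarked KO value was left, and these values keep the marked spots. With quantile normalization the difference was -0.20, and within the slide row that holds WT3 and all KO mice it was -0.38. The list of genes shared by all adipocytes, such as Adipoq and Plin1, had a mean of 4.78, 5.24 and 4.85 in WT and 4.48, 4.46 and 4.99 in KO. All 8 of its genes were measured, none passed the test in either direction, and the log2 of their summed level ran from 7.99 to 8.45 in WT and from 7.62 to 8.15 in KO. Their part in the Rbp4 values was not tested, and in bulk tissue fewer cells of a type and less RNA per cell cannot be told apart.

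Stra6, the membrane receptor that takes retinol from its binding protein, was near background. It read -5.63, -4.81 and -5.51 in WT and -4.76, -5.24 and -4.92 in KO. The groups overlapped through WT2, and the difference was 0.35 (SE 0.28). Its spot was above background on 5 arrays; KO1, the mouse with the highest scaled value, was the exception and was also the array with the highest floor. With quantile normalization the difference was 0.11.

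**Figure D1:**
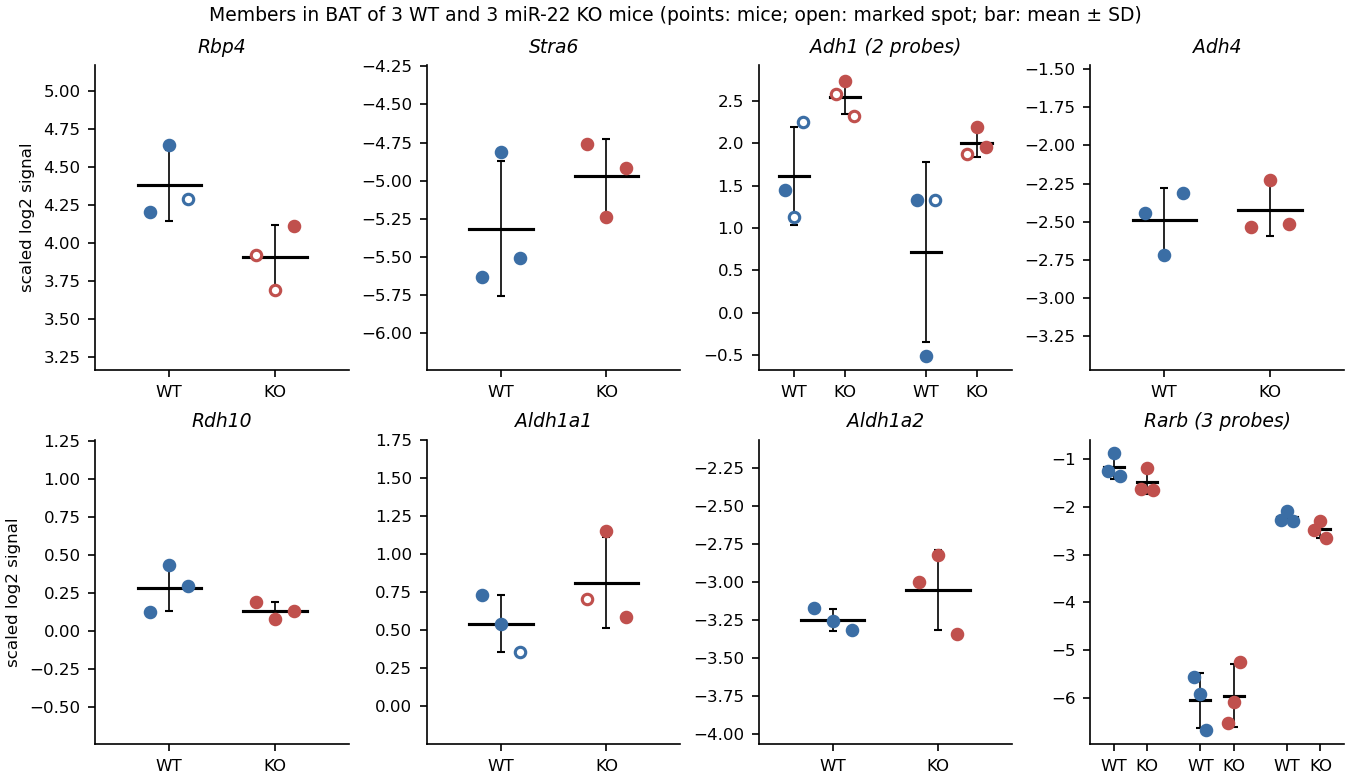
Scaled log2 signal (vertical axes, each spanning at least 2 units but placed differently) of the 8 measured members in 3 WT (blue) and 3 KO (red) mice; each point is a mouse, open points are spots marked by the scanner software, and bars are the mean ± SD over all 3 mice. For Adh1 and Rarb each pair of columns is 1 probe; Rbp4, both Adh1 probes and the third Rarb probe shown show no overlap of the groups, and WT2 lies apart on the second Adh1 probe at -0.51.

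Adh1, the alcohol dehydrogenase that also oxidizes retinol, had the largest difference among the members, toward higher values in KO, and both of its probes went the same way. Probe A_52_P629895 read 1.45, 1.13 and 2.25 in WT and 2.58, 2.73 and 2.32 in KO. WT3 came within reach of KO3, and no WT mouse reached the KO range. The difference was 0.94 (SE 0.32), from 1.61 ± 0.57 in WT to 2.55 ± 0.21 in KO (SD, n = 3 each), or 1.91-fold. Of its 6 spots, 4 were marked (WT2, WT3, KO1 and KO3). Probe A_55_P2502426 read 1.33, -0.51 and 1.33 in WT and 1.87, 2.20 and 1.95 in KO. WT2 stood far below the other mice on this probe. Its difference was 1.29 (SE 0.52), and 1.66 (SE 0.67) when the marked spots of WT3 and KO1 were left out, which leaves 2 mice per group. Within the slide row of WT3 and the KO mice the differences were 0.30 and 0.68, smaller than those over all 6 mice.

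White adipocyte markers were checked beside Adh1, and their members differed in direction. The mean of that list was -1.35, -1.30 and -1.49 in WT and -1.20, -0.91 and -0.47 in KO, with no overlap, while of its 8 measured genes Wfdc21 and Nnat passed an unadjusted p under 0.05 with limma upward, Hoxc8 passed downward and 5 did not pass. Hoxc10 was not above background, and the log2 of the summed level overlapped, at 3.47 to 4.08 in WT and 3.45 to 4.30 in KO. Of 5 hepatocyte markers 2 were measured, Alb and Apoa2, and Apoa1, Fgb and Tat were not above background. Alb read -6.51, -5.41 and -8.05 in WT and -6.78, -4.76 and -3.40 in KO, a difference of 1.68 (SE 0.96). Apoa2 went the other way, at -0.21 (SE 0.21), and neither passed. Whether these cells had a part in the Adh1 values was not tested. The 5 genes whose 6 values were most like those of the brighter Adh1 probe were Tulp3, Nat2, Ebi3, Il1rap and Ctbs, with Pearson's r from 0.989 to 0.997 over 6 arrays and 16109 genes compared, 58 of them above an r of 0.95. All 6 points of each share the arrays and their scaling, and these values are a description.

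Adh4, a second alcohol dehydrogenase active on retinol, lies on the same chromosome 3 as Adh1 but had overlapping groups. It read -2.44, -2.72 and -2.31 in WT and -2.53, -2.23 and -2.51 in KO. The difference was 0.06 (SE 0.20), and its sign changed in 7 of 15 other settings, which gave values from -0.12 to 0.15. Rdh10, the retinol dehydrogenase that supplies retinal for retinoic acid in embryos, read 0.13, 0.43 and 0.29 in WT and 0.19, 0.08 and 0.13 in KO. The KO values lay inside or just below the WT range, and the difference was -0.15 (SE 0.18).

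The enzymes that make retinoic acid from retinal also overlapped between the groups. Aldh1a1, the form most used in fat, read 0.73, 0.54 and 0.36 in WT and 0.70, 1.15 and 0.58 in KO. KO2 was highest and the other KO mice fell within the WT range, and the difference was 0.27 (SE 0.23). Aldh1a2, the main embryonic form, read -3.17, -3.25 and -3.32 in WT and -3.00, -2.82 and -3.34 in KO. The difference was 0.19 (SE 0.20), with KO3 the lowest of all 6 mice. It was 0.04 with quantile normalization, 0.08 without KO2 and 0.34 without KO3.

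Rarb, the receptor whose promoter holds the repeat printed above, was measured by 3 probes made for different transcripts. Probe A_51_P202440 read -1.26, -0.89 and -1.36 in WT and -1.63, -1.20 and -1.64 in KO, a difference of -0.32 (SE 0.23). Only KO2 reached the WT range. Probe A_55_P2730981 read -2.28, -2.09 and -2.29 in WT and -2.48, -2.31 and -2.64 in KO. Here every KO mouse was below every WT mouse, by a narrow margin for KO2, and the difference was -0.26 (SE 0.18). Probe A_55_P2099585 was above background in 2 WT mice and 1 KO mouse, with a difference of 0.10 (SE 0.43). Within the row of WT3 and the KO mice the first 2 probes differed by -0.13 and -0.19.

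Across the 8 measured members, with marked spots kept and the brightest probe of each, the KO mice lay wholly above the WT mice for 1 gene (Adh1), wholly below for 1 (Rbp4) and overlapped for 6. Over all 16110 genes measured this way, 11.6% had KO wholly above and 17.1% had KO wholly below. Since the members were chosen from this contrast, nothing is read from their counts. Of the members, 5 had a difference above 0 and 3 below, with a median of 0.13 against -0.06 over all genes measured this way. Many of the extremes fell on 2 mice. Of the 11 probes, WT2 was highest in 4 (Rbp4, Rdh10 and 2 probes of Rarb) and lowest in 3 (both of Adh1, and Adh4). KO2 was highest in 5 (both of Adh1, Adh4, Aldh1a1 and Aldh1a2) and lowest in 2 (Rbp4 and Rdh10). The oxidizing enzymes other than Rdh10 were thus highest in 1 KO mouse, and Rbp4, Rdh10 and Rarb were highest in 1 WT mouse.

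**Figure D2:**
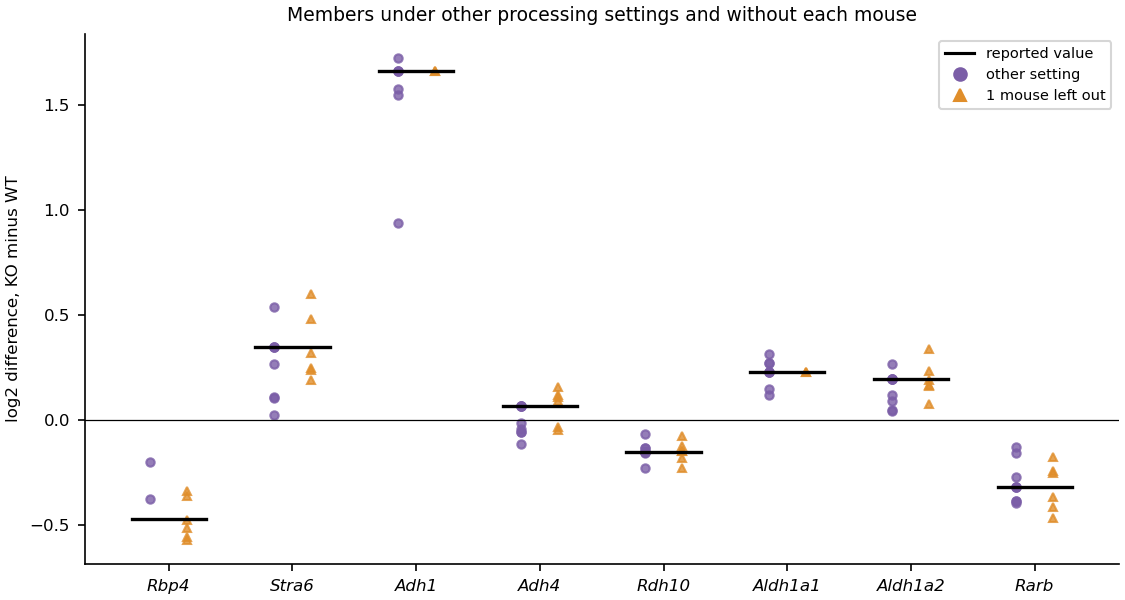
Log2 difference, KO minus WT (vertical axis), of each measured member under the reported fit (black bar), other processing settings (circles) and fits that leave out 1 mouse (triangles). The bars use unmarked spots, so Adh1 stands for its second probe at 1.66, except for Rbp4, where marked spots are kept; Adh4 is the member whose values fall on both sides of 0.

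The rest of the retinoid pathway was covered by a list of 62 other genes, ordered by role, of which 40 could be tested. At an unadjusted p under 0.05 with limma, 6 of the 40 (15%) were higher and 7 (17.5%) lower in KO, against 10.0% and 8.82% of all 14711 genes tested. This list was also chosen with earlier results of these data known, so nothing is read from these shares. No listed gene passed Benjamini-Hochberg adjustment (0.184% of all genes did, 27 genes, with 0 to 283 across the other settings), and the median difference was 0.02 against -0.03 over all genes tested. The adjusted p of the 13 genes ran from 0.108 to 0.263. The direction of these calls went with signal level. All 7 lower genes had a WT mean above 0, from 0.29 for Hoxb4 to 3.90 for Dhrs4. Of the 6 higher genes, Rarres1 was at 0.58 and the others were below 0, from -0.81 for Rdh11 to -5.43 for Rdh12. With no filter on dim probes, the median difference over all genes was 0.14, with 1736 higher and 933 lower. Whether signal level had a part in the calls was not tested. Of the 22 genes not tested, 15 were above background on fewer than 3 arrays, among them Lrat, Rbp2, Bco1, Cyp26a1 and Cyp26c1, and 7 had too few unmarked spots, among them Lpl, Dgat1, Retsat and Ucp1.

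**Figure D3:**
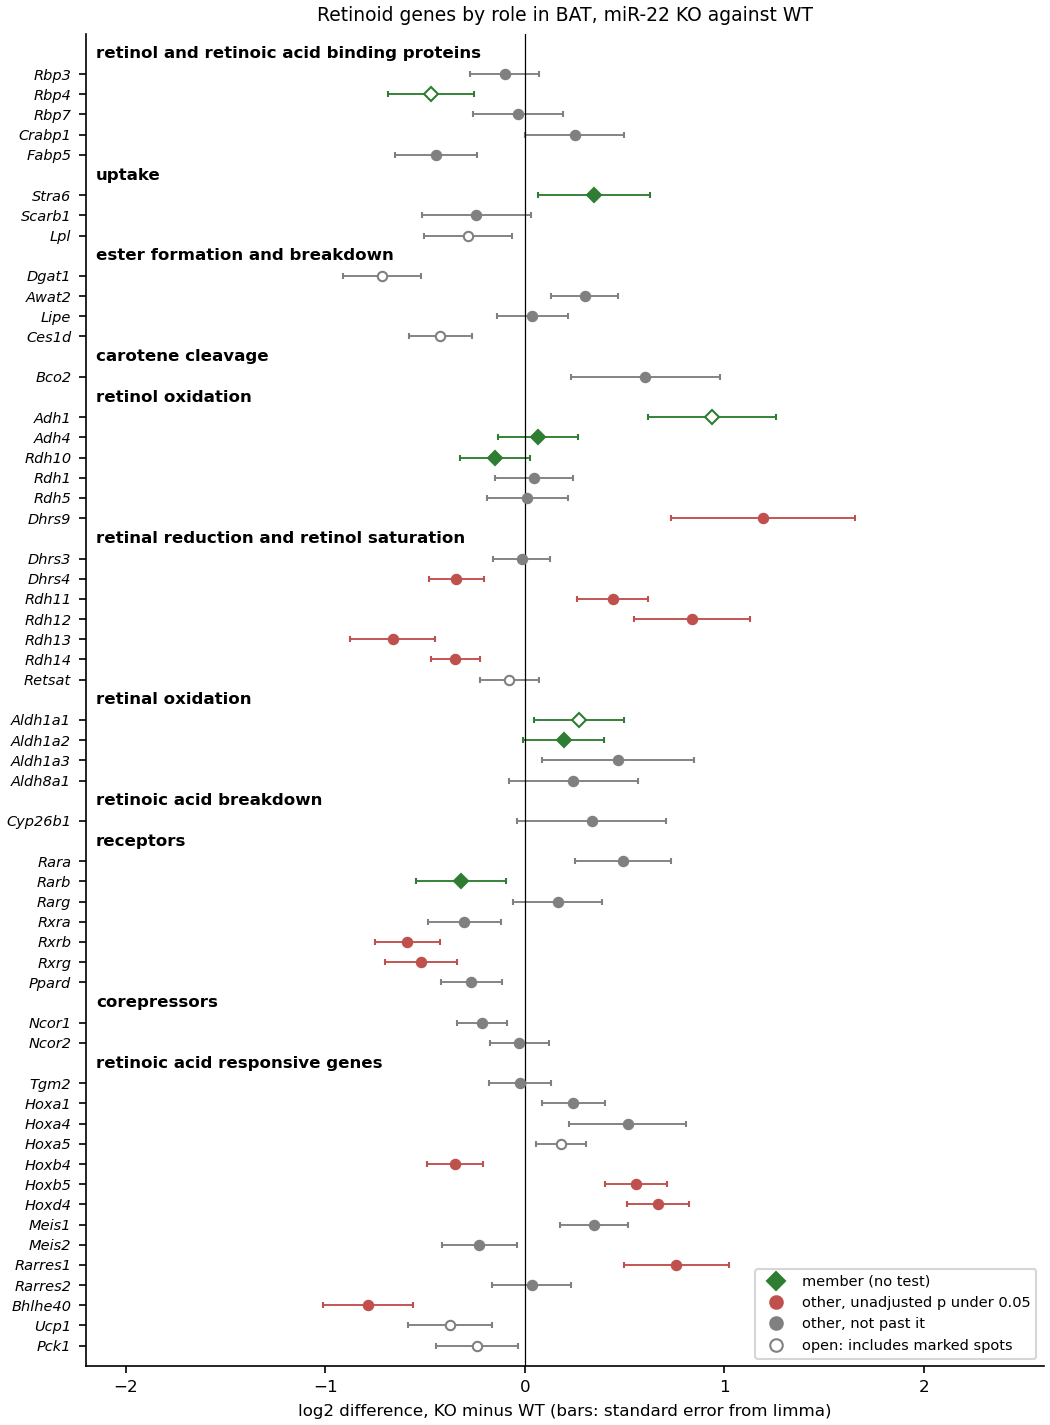
Log2 difference, KO minus WT (horizontal axis; bars are the SE from limma), of measured retinoid genes grouped by role. Green diamonds are the members, which carry no test and are shown with all 6 mice; red circles are other genes past an unadjusted p under 0.05, filled grey circles did not pass, and open symbols include marked spots, so the open grey genes were not among the 40 tested. The called genes lie on both sides of 0.

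Among the 9 tested genes of the binding, uptake, ester and carotene groups none passed. Of 5 tested binding proteins 4 were below 0, as were 7779 of all 14711 genes tested. Fabp5, which delivers retinoic acid to the receptor PPARδ, had a difference of -0.45 (SE 0.20, adjusted p = 0.294 with limma). Rbp7, a cellular retinol-binding protein, had a difference of -0.04 (SE 0.23) from 2 unmarked mice per group, and 0.005 with marked spots kept. With marked spots kept, 47 listed genes could be tested, and Dgat1 and Ces1d of the ester group were then lower. Their differences were -0.72 (SE 0.19, adjusted p = 0.129 with limma) and -0.42 (SE 0.16, adjusted p = 0.205 with limma). Bco2, which cleaves carotenoids in mitochondria, had the largest difference among genes that did not pass, at 0.60 (SE 0.37).

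The dehydrogenases and reductases that move between retinol and retinal held 6 of the 13 calls. Of 3 tested retinol-oxidizing genes besides the members, Dhrs9 was higher, by 1.19 (SE 0.46, adjusted p = 0.235 with limma). It read -3.64, -3.48 and -3.83 in WT and -2.22, -3.56 and -1.60 in KO. KO2 was within the WT range, and the difference was 0.77 and did not pass without KO3. The Dhrs9 call was lost in 9 of 17 other settings in all, among them those without WT1, WT2, WT3 or KO1. Of 6 tested genes for retinal reduction and retinol saturation, Rdh11 and Rdh12 were higher, by 0.44 (SE 0.18) and 0.84 (SE 0.29), and Dhrs4, Rdh13 and Rdh14 were lower. These last differences were -0.34 (SE 0.14), -0.66 (SE 0.21) and -0.35 (SE 0.12). With quantile normalization Dhrs4 was at -0.10 and did not pass, as in 10 of 17 other settings in all. Rdh12 was at 0.13 with normexp and lost its call in 8 of 16 settings, and Rdh11 lost its call in 14 of 16. Without WT1 or WT2 the Rdh11 probe had too few unmarked values, so its other probe stood for it, at 0.34 and 0.15. That other probe was at 0.33 over all 6 mice. Rdh12 was above background on 5 arrays, and Rdh13 had 2 unmarked mice per group. Rdh14 lost its call in 6 of 17 other settings. Dhrs3, the main reductase that returns retinal to retinol, had a difference of -0.02 (SE 0.14). Both retinal-oxidizing genes besides the members did not pass, with Aldh1a3 at 0.47 (SE 0.38).

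Of 6 tested receptor genes, 2 passed, both of the RXR family, the partners of the retinoic acid receptors. Rxrb read 2.41, 2.73 and 2.46 in WT and 1.97, 1.75 and 2.11 in KO. No KO mouse reached the WT range, and the gene was lower by a log2 difference of -0.59 (SE 0.16, adjusted p = 0.140 with limma). Its other probes had overlapping groups, with differences of -0.32 (SE 0.32) and -0.17 (SE 0.31), and the mean of all its probes, at -0.36, did not pass. Rxrg, from 2 unmarked mice per group, had a difference of -0.52 (SE 0.18, adjusted p = 0.234 with limma). Rxra was at -0.30 (SE 0.18) and did not pass. Rara and Rarg, the sister receptors of Rarb, had differences of 0.49 (SE 0.24) and 0.16 (SE 0.22) and did not pass either. Cyp26b1, the one tested retinoic acid hydroxylase, was at 0.33 (SE 0.37).

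Of 11 tested genes known to respond to retinoic acid, 3 were higher and 2 lower. Hoxd4, a homeobox gene with a retinoic acid responsive enhancer, read -1.97, -1.71 and -2.06 in WT and -1.40, -1.13 and -1.21 in KO. The groups stood apart, and the difference was 0.67 (SE 0.16, adjusted p = 0.108 with limma). It was the one gene of the 13 that passed the unadjusted threshold in all 17 other settings, where limma and the methods' t-test gave adjusted p from 0.0727 to 0.415. Hoxb5, of the same family, was higher by 0.56 (SE 0.16) and at 0.26 with normexp, where it did not pass. Hoxb4 was lower, with a difference of -0.35 (SE 0.14), and lost its call in 8 of 17 other settings. Rarres1, named for its induction by retinoids, was higher by 0.76 (SE 0.26), with 0.11, 0.52 and 1.11 in WT and 1.21, 1.26 and 1.55 in KO. WT3 was close to the KO mice here, and against WT3 alone, with the slide row as a block, the difference was 0.23 and did not pass. The call was also lost with the methods' t-test and without WT1, WT2 or KO3. Bhlhe40, a transcriptional repressor of the clock, was lower, with a difference of -0.79 (SE 0.23) from 2 unmarked mice per group. With marked spots kept, KO1 fell inside the WT range, and the difference was -0.56 and did not pass. Hoxa4 did not pass, at 0.52 (SE 0.29).

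**Figure D4:**
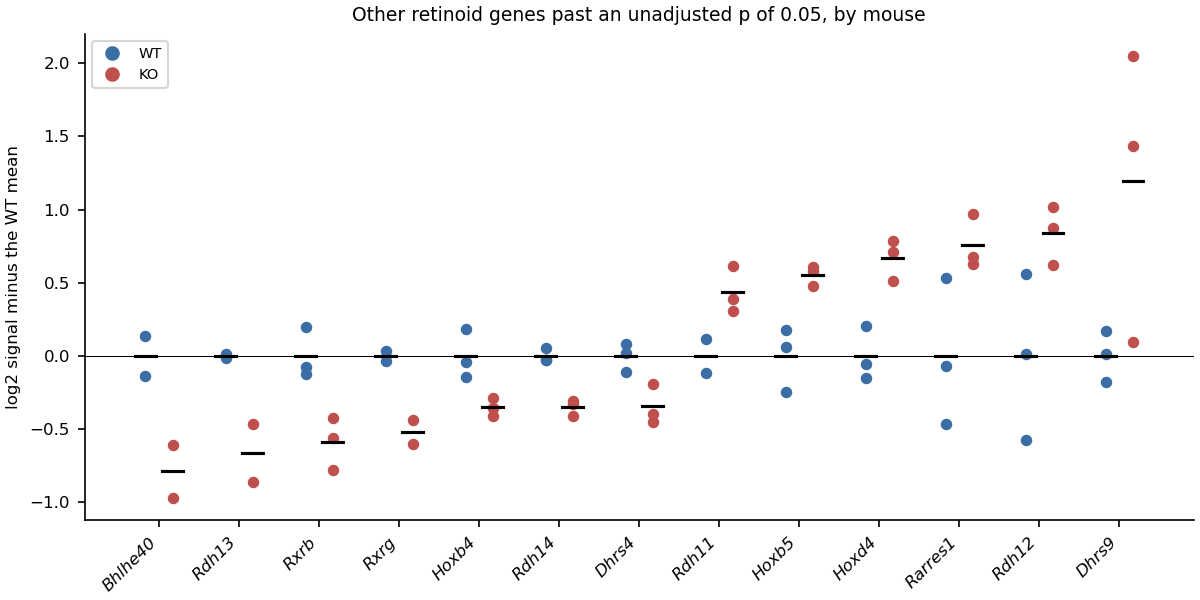
Log2 signal of each mouse minus the WT mean of the gene (vertical axis) for the 13 other retinoid genes past an unadjusted p under 0.05, with unmarked spots and black bars for group means. Dhrs9 alone has a KO mouse inside the WT range, and genes with fewer than 3 points in a group lost marked spots.

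With the slide row as a block, which leaves the comparison of the KO mice with WT3, 4 of 33 listed genes were higher and 0 lower. Over all 12351 genes that could be fitted so, 810 were higher and 308 lower. This fit takes the spread of the lone WT mouse to be that of the others. The higher genes other than Hoxd4 were Rara, Bco2 and Crabp1, at 0.97, 1.17 and 0.73. Without the block they were at 0.49, 0.60 and 0.25 and were not called. Of the 13 genes called without the block, Bhlhe40, Rdh11, Rdh13 and Rxrg had a marked WT3 spot and could not be fitted with it. Of the others only Hoxd4 passed, with a difference of 0.82. Without the block, the share of calls that were lower over all genes was 46.8%, and it was 56.0% with quantile normalization and 63.8% when the median of the detected probes set the scale.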

How the data were processed

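BAT RNA of 3 WT and 3 KO mice was measured on 6 Agilent 1-dye arrays. The authors deposited intensity values from Agilent Feature Extraction (version 10.7 per the submitters' processing notes), as processed signals after background subtraction, and a table of log2 values for 27497 probes, whose processing is not stated; its columns correlated with the scanner signals of their own arrays at r of at least 0.9998, with column medians of 8.82 to 8.85. The members and all gene lists were chosen with earlier results of these data known.

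Each array was scaled to its 75th percentile over spots that are not controls, on the log2 scale. A probe needed a signal well above background on 3 or more arrays and at least 2 unmarked values per group, and the brightest testable probe stood for a gene. For the members, every probe is given with marked spots kept, and their SE comes from a fit over all probes. RefSeq accessions placed 33767 of 56605 probes on 1 gene; the others were left out. Groups were compared with limma 3.58.1 in R 4.3.3, two-sided, at an unadjusted p of 0.05, the threshold of the study's methods. They were also compared after Benjamini-Hochberg adjustment over all tested genes. The study used SAM software for its arrays, which was not run here. The methods' t-test named above comes from its general statistics. The named genes were all members, every other listed gene past that p, the 5 largest differences among the rest above background on all 6 arrays, and the 5 genes most like the member with the largest difference. Marker lists were summarised by their mean. The fit was tested on simulated data. Alternatives changed the scaling, background correction, filter, marked spots, probe choice and test, took the slide row as a block or left out 1 mouse. The value of 1 listed gene is not reported here, though the list counts include it.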

Additional observations from a re-analysis of the deposited data

How the results depend on the processing

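The differences of Stra6, Adh1, Rdh10, Aldh1a1, Aldh1a2 and Rarb kept their sign in every alternative that gave a value, as did Rbp4 in 8 alternatives, and Adh4 did not. Stra6 fell to 0.02 with normexp, and the Adh1 value with marked spots kept, 0.94, is from its other probe. Some alternatives, such as that without the filter on dim probes, use the same values of a member as the reported fit. Since the members were chosen from this contrast, nothing is read from these signs. For Adh1 and Aldh1a1 the unmarked values were 2 per group, so leaving out WT3 or KO1 changed nothing and leaving out another mouse left too few values. Against 1476 genes higher and 1297 lower over all genes, normexp with an offset of 50 called 894 higher. The slide row as a block called 810 higher and 308 lower, and 880 and 496 with the marked spots kept, an alternative chosen after seeing the data. Against 6 other retinoid genes higher and 7 lower, 3 were higher with normexp and 2 with the methods' t-test. With the authors' processed values 4 were lower, with no filter on dim probes 3, with the slide row as a block 0, and with marked spots kept 4 after quantile normalization and 3 with the block. The block sets the KO mice against WT3 alone, and the parts of WT1 and WT2 and of their row cannot be told apart. Leaving out 1 mouse at a time gave 1067 to 1407 genes higher and 716 to 1375 lower over all genes, and 2 to 8 other retinoid genes higher and 2 to 4 lower. Without WT1 3 were higher and 2 lower, without WT2 8 and 2, without WT3 4 and 4, without KO1 4 and 3, without KO2 5 and 2, and without KO3 2 and 4. The causes were not tested. Hoxd4 passed in all 17 alternatives, Hoxb5 and Rxrb in 15 of 17, and Rdh11 in 2 of 16. No paired analysis was possible because the labels share no replicate numbers between the groups.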
